A study of Mus musculus with 12 samples.

Results

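The genes described here are 50 genes of the primary cilium, among them genes mutated in nephronophthisis and in the related Bardet-Biedl, Joubert and Meckel syndromes. They were picked by gene symbol from the table of read counts, which lists 54532 genes, and each symbol was found. By role, 12 belong to intraflagellar transport complex B (IFT-B), 3 to complex A (IFT-A), 3 to the transport motors, 6 to the BBSome, 2 to the chaperonin that assembles the BBSome, 15 to the transition zone, 3 to the inversin compartment and 4 to the traffic of ciliary membrane proteins. The last 2 are Glis2, a nephronophthisis transcription factor, and Kif7, a kinesin of the cilium tip.

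RNA-seq was performed on whole kidneys of 12 C57BL/6 mice at 18 days of age, in 4 groups of 3. Noncystic mice were Pkd1 RC/+, in which + is an intact floxed Pkd1 allele, and were without the Ksp-Cre transgene that cystic mice had. They carried either Pkd2 +/+ (mice 19 to 21) or Pkd2 Δ17/Δ17 (mice 22 to 24). Cystic mice were Pkd1 RC/- with Pkd2 +/+ (mice 25 to 27) or Pkd2 Δ17/Δ17 (mice 28 to 30). RC is a hypomorphic Pkd1 allele that all 4 groups share, and in cystic mice the other Pkd1 allele was deleted by Ksp-Cre, which is active in tubule epithelium and not in every kidney cell. Δ17 is a germline deletion of the miR-17 binding motif from the 3′-UTR of Pkd2, so it is present in every cell of the kidney.

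A primary cilium is a single microtubule-based antenna on the surface of nearly every kidney tubule cell. Kinesin-2 carries IFT-B trains to the tip and dynein-2 with IFT-A returns them. The transition zone gates the base of the cilium, and the BBSome and the small GTPases Arl3 and Arl13b sort membrane proteins in and out. Polycystin-1 and polycystin-2, the products of Pkd1 and Pkd2, reside in the ciliary membrane, and loss of many of the genes described here causes cystic or fibrotic kidney disease.

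The libraries held 18800307 to 24453033 counted reads. The targeted gene followed the labels: Pkd2 read 194 to 219 CPM (read count over the library's scaled total) in noncystic Pkd2 +/+ mice and 271 to 286 in noncystic Pkd2 Δ17/Δ17 mice, against 213 to 233 and 307 to 337 in the cystic groups. The labels give no sex. Xist was at 431 to 811 CPM in 6 mice and at 5.47 to 7.74 in the other 6, with both kinds in each group. CPM here were scaled by edgeR's TMM factors, between 0.9329 and 0.9724 for noncystic libraries and between 1.044 and 1.076 for cystic ones. Library totals, used as the scale in their place, raised the median log2 fold change of all genes between cystic and noncystic kidneys by 0.16 with Pkd2 +/+ and by 0.15 with Pkd2 Δ17/Δ17, so changes are given relative to the TMM scale.

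Regulatory factor X (RFX) proteins bind an X-box in the promoters of many cilium genes, so the promoters of the 50 genes were searched for the X-box consensus on both strands. It is 14 letters long, of which 7 are fixed, and starts with GT and ends with AC. RefSeq (GRCm38.p6) gave a promoter, from 250 bases before to 50 bases after a start site, for 44 of the 50. A match was present in 14 of these 44 (31.8%), against 1422 of 27025 genes with a promoter (5.26%) and 1518 of 32851 promoters (4.62%). Sequences of 2 genes that were higher in cystic kidneys, Nphp4 and Tmem231, and of 4 that did not pass the test, Bbs1, Bbs7, Mks1 and Dync2h1, follow with the X-box in capitals. They lie at chr4:152477903-152477932 (forward strand, Nphp4), chr8:111933781-111933810 (reverse, Tmem231), chr19:4906605-4906634 (reverse, Bbs1), chr3:36613489-36613518 (reverse, Bbs7), chr11:87853183-87853212 (forward, Mks1) and chr9:7177022-7177051 (reverse, Dync2h1).
Nphp4: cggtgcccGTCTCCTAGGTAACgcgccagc
Tmem231: cgccgtcgGTTGCCGTGGAGACtcggcgct
Bbs1: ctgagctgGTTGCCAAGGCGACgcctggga
Bbs7: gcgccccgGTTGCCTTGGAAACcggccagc
Mks1: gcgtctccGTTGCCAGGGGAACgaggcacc
Dync2h1: gtgaagcgGTCGCCATAGCGACggagcttg

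The remaining genes with a match were Ift22 and Ift57, each with 2, and Bbs4, Tctn1, Tctn2, B9d2, Tmem216 and Ahi1. A match is a description of the letters and not a measured binding site.

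Since the Δ17 allele removes a miR-17 motif from Pkd2, the 3′-UTRs of the 50 genes were searched for the same kind of motif, GCACTTT, which pairs with the seed of miR-17-5p (bases 2 to 8, in capitals in the mature sequence from RefSeq). It was present in 4 of 49 genes with an annotated 3′-UTR (8.16%), against 2198 of 16767 kept protein-coding genes (13.1%). The median 3′-UTR was 778 nucleotides long in the 49 genes and 1078 in the kept genes. The 4 sites, with the seed match in capitals, lie in the last exon of each gene (GRCm38), with the match at chr2:153332738-153332744 in Kif3b, chr14:57517728-57517734 in Ift88, chr4:48431103-48431109 in Invs and chr3:37321348-37321354 in Bbs12, all on the forward strand.
miR-17-5p: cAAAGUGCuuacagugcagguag
Kif3b: taggcatgaaGCACTTTgtaagactga
Ift88: tgcaaggcaaGCACTTTtccaattgtg
Invs: aaaacaaaagGCACTTTagtttgagaa
Bbs12: agaacagcaaGCACTTTtgagtcattt

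All 50 genes were transcribed in these kidneys. Their raw counts ran from 69 to 7314 reads per mouse, and mean levels over the 12 mice ran from 5.32 CPM for Bbs12 to 236 CPM for Glis2. Each passed the cutoff on low counts, which was set on the average over the 12 mice. On a scale per length of annotated exon, Glis2 led with 53.9 CPM per kilobase, followed by Ift20 with 49.5, Arl3 with 34.4, Ift43 with 18.5, Ift52 with 15.2 and B9d1 with 14. The most abundant member of the motors was Kif3b (9.28 CPM per kilobase), of the BBSome Bbs2 (8.88), of the inversin compartment Anks6 (7.34) and of the BBS chaperonin Bbs12 (2.18). The lowest were Rpgrip1l at 0.994 and Cep290 at 1.01 CPM per kilobase. Thus on this scale a few small IFT and GTPase genes were far more abundant than the genes of large transition zone scaffolds. The length used joins the exons of all annotated transcripts of a gene, so the ranking depends on the annotation too.

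Comparing cystic with noncystic kidneys in mice with intact Pkd2 asked how the cilium genes stand in the disease itself. By edgeR's quasi-likelihood test with an adjusted p under 0.05, 15 of the 50 genes were higher in cystic kidneys (30%) and 2 were lower (4%). Of all 24642 genes tested, 31.1% were called, 16.9% as higher and 14.2% as lower. Of the 13848 well expressed genes, those whose average log2CPM was 1 or more, as for all 50 cilium genes, 26.6% were higher and 22.2% lower. The 30% that were higher stand near the background of well expressed genes, and the 4% that were lower stand below it. Their median log2 fold change was 0.17, against 0.04 for the well expressed genes, and the largest absolute value was 0.80, so no member changed 2-fold. The sum over the 50 genes was 1343 to 1474 CPM in noncystic and 1596 to 1631 CPM in cystic Pkd2 +/+ mice, without overlap. Its mean went from 1419 to 1610 CPM, a rise to which Glis2 alone, at 184 and 289 CPM, gave a large part. The summed BBSome genes were at a mean of 106 and 100 CPM. With library totals, 24 were higher and 1 was lower, and of all genes tested 25.4% were higher and 10% lower.

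Whole kidney RNA mixes cell types, and fewer cells of a type cannot be told apart from less RNA per cell. Markers moved along with this comparison: all 8 proximal tubule markers were lower (summed level 8214 to 10198 CPM in noncystic and 3149 to 4393 CPM in cystic Pkd2 +/+ mice), and all 6 macrophage markers (121 to 127 against 283 to 392 CPM) and all 6 markers of dividing cells (119 to 186 against 401 to 433 CPM) were higher. Of 8 collecting duct markers, 3 were higher and 3 were lower. Of 5 podocyte markers 1 was higher and 4 were lower, of 7 fibroblast and smooth muscle markers 4 were higher and 1 was lower, and 3 of 5 endothelial markers were lower. Of 6 thick ascending limb and distal tubule markers 1 was higher and 4 were lower, all 3 fat markers were lower, and none of 6 lymphocyte markers passed the test. The part of these cell types in the changes of the cilium genes was not tested.

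**Figure D1:**
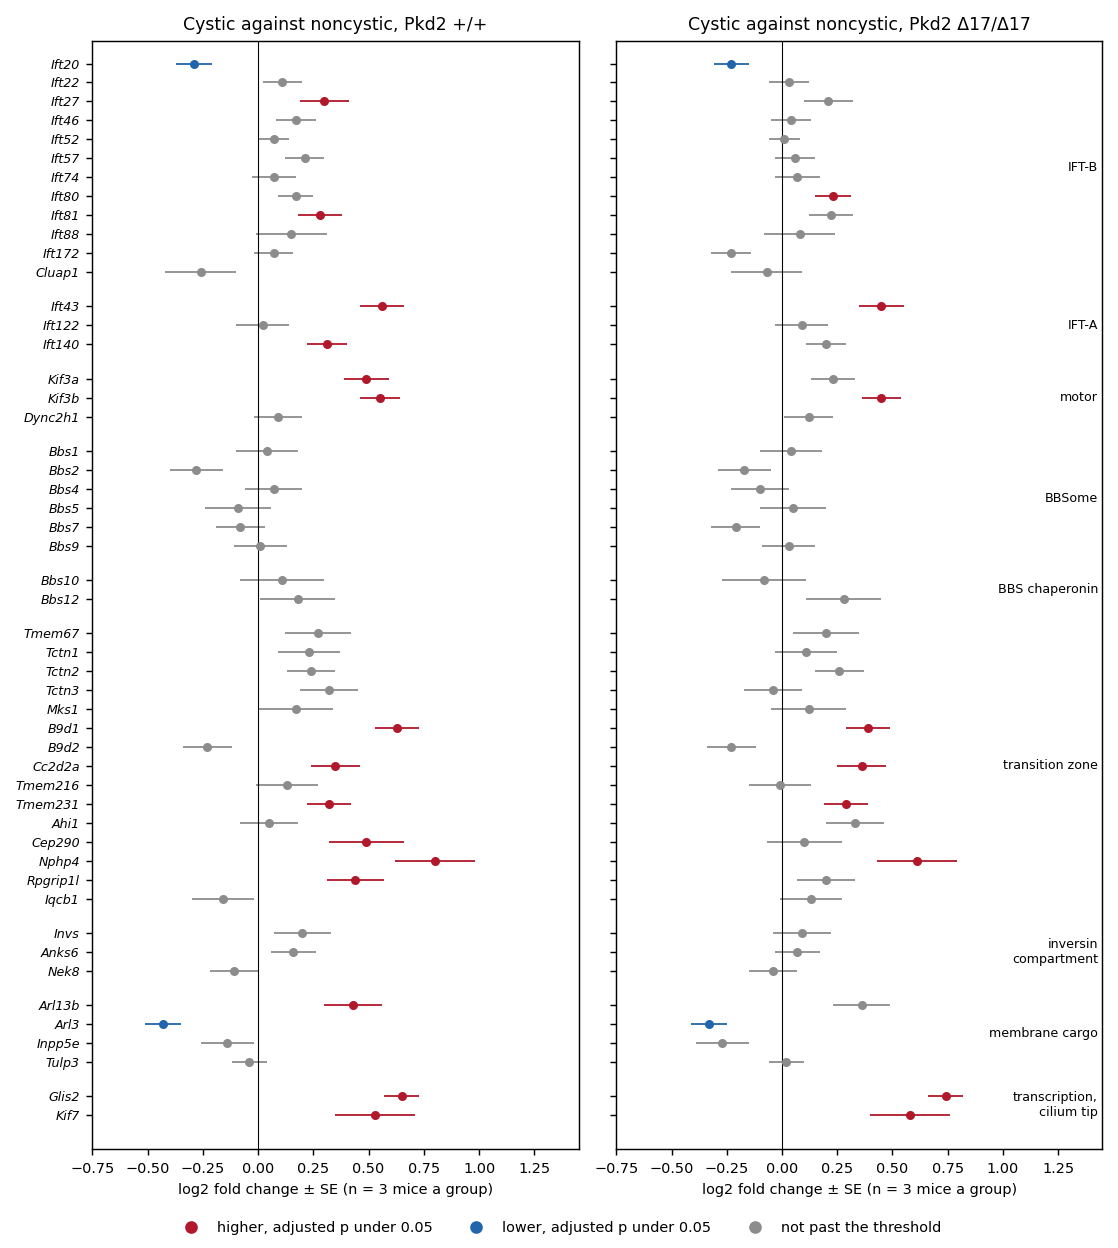
Log2 fold change of the 50 genes between cystic and noncystic kidneys, by role, in Pkd2 +/+ mice (left) and Pkd2 Δ17/Δ17 mice (right). Points are edgeR estimates and bars standard errors derived from the F statistic of the test, with 3 mice a group. With Pkd2 +/+, 15 genes were higher (red) and 2 lower (blue), and with Pkd2 Δ17/Δ17 9 were higher and 2 lower.

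The transition zone held the gene with the largest change, Nphp4, whose product nephrocystin-4 anchors the nephronophthisis module of the gate. It read 3.89, 4.11 and 5.39 CPM in noncystic and 8.44, 6.46 and 8.48 CPM in cystic Pkd2 +/+ mice. The groups did not overlap, and the log2 fold change was 0.80 ± 0.18 (SE, adjusted p = 0.00202 by edgeR's quasi-likelihood test). B9d1, a B9-domain protein of the Meckel syndrome module, read 18.8, 21.2 and 18.9 CPM in noncystic and 27.7, 32.8 and 30.3 CPM in cystic mice, and was higher by 0.63 ± 0.10 (adjusted p = 0.000116). Its partner in the same module, B9d2, did not follow it: its log2 fold change was -0.23 ± 0.11 (adjusted p = 0.135), and all 3 cystic mice lay below all 3 noncystic mice.

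Rpgrip1l, a scaffold at the base of the transition zone, read 12.6, 11 and 11.9 CPM in noncystic and 17.3, 16.1 and 14.7 CPM in cystic Pkd2 +/+ mice, again without overlap (log2 fold change 0.44 ± 0.13, adjusted p = 0.0169). Cc2d2a, a Meckel and Joubert syndrome gene, read 22.7, 20.5 and 23.2 CPM against 31.3, 26.4 and 27.1 CPM (0.35 ± 0.11, adjusted p = 0.0196). Tmem231, a membrane protein of the Meckel module, read 20.1, 23 and 22.3 CPM against 24.7, 30.4 and 26.6 CPM (0.32 ± 0.10, adjusted p = 0.0205). In each of the 3 genes the lowest cystic mouse was above the highest noncystic mouse.

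Cep290, which links the gate's membrane to its microtubules, passed the test with less room. It read 8.93, 6.16 and 11.3 CPM in noncystic and 13, 12.5 and 11.7 CPM in cystic Pkd2 +/+ mice (log2 fold change 0.49 ± 0.17, adjusted p = 0.0399). Its lowest value was that of mouse 20, without which the adjusted p was 0.231. The call was also lost on leaving out mouse 19, 25, 26 or 27, and held in 7 of the 16 fits run. Noncystic Pkd2 Δ17/Δ17 mice read 12.3, 13.6 and 11.2 CPM, like cystic mice. Of the exon bases of Cep290, 7.584% overlap a gene on the opposite strand. The other 9 transition zone genes, Tmem67, Tctn1, Tctn2, Tctn3, Mks1, B9d2, Tmem216, Ahi1 and Iqcb1, did not pass the test. So 6 of 15 were higher (40%) and 0 lower, against 26.6% and 22.2% of the well expressed genes. The median log2 fold change was 0.27 for the 15.

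In the transport machinery both motor subunits of kinesin-2 were higher. Kif3b, a motor subunit of kinesin-2, read 40.9, 38.7 and 47.2 CPM in noncystic and 62.8, 66.2 and 56.2 CPM in cystic Pkd2 +/+ mice (log2 fold change 0.55 ± 0.09, adjusted p = 0.000109). Kif3a, the other motor subunit, read 26.6, 24.2 and 22.9 CPM against 33, 37.5 and 33.4 CPM (0.49 ± 0.10, adjusted p = 0.000909). Both rose without overlap between the groups, whereas Kifap3, the accessory subunit of the same motor and no member of the 50, was at 0.10 ± 0.08 (adjusted p = 0.412). Dync2h1, the heavy chain of the retrograde motor, had a log2 fold change of 0.09 ± 0.11 (adjusted p = 0.615), at 24 to 28.1 CPM in noncystic and 23.3 to 30 CPM in cystic mice.

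Of the 3 IFT-A genes, 2 were higher, where 26.6% of the well expressed genes were. Ift43 read 27.7, 25 and 26.8 CPM in noncystic and 38.4, 36.8 and 42.2 CPM in cystic Pkd2 +/+ mice, a gap wider than either group's range (log2 fold change 0.56 ± 0.10, adjusted p = 0.000286). Ift140, mutated in skeletal ciliopathies with cystic kidneys, was higher by 0.31 ± 0.09 (adjusted p = 0.0135), and Ift122 had a log2 fold change of 0.02 ± 0.12 (adjusted p = 0.934).

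Of the 12 genes of IFT-B, the largest transport complex, 2 were higher and 1 was lower (25% called in all, against 31.1% of all genes tested). These are 16.7% and 8.33%, against 26.6% and 22.2% of the well expressed genes. The higher ones were Ift27 by 0.30 ± 0.11 (adjusted p = 0.0442) and Ift81 by 0.28 ± 0.10 (adjusted p = 0.039). The lower one was Ift20, the only IFT protein known at the Golgi as well as the cilium, which read 85.7, 90.1 and 83.8 CPM in noncystic and 73.4, 66 and 72.3 CPM in cystic Pkd2 +/+ mice, without overlap (-0.29 ± 0.08, adjusted p = 0.00718). With library totals Ift20 was no longer past the threshold (-0.13, adjusted p = 0.202). The other 9 IFT-B genes, Ift88 and Ift172 among them, had log2 fold changes between -0.26 for Cluap1 and 0.21 for Ift57. Ift88 read 18.5, 12.5 and 16.3 CPM in noncystic and 19.4, 17.4 and 15.5 CPM in cystic mice, which overlap.

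None of the 8 BBS genes passed the test by edgeR, with 1 at an unadjusted p under 0.05, whereas DESeq2 called 1 lower and limma-trend none. By edgeR 26.6% of the well expressed genes were higher and 22.2% lower. Of all genes tested DESeq2 called 15.4% lower, and limma-trend 25.6% higher and 10.2% lower. That gene was Bbs2, a BBSome subunit, which read 32.7, 27.4 and 35 CPM in noncystic and 29, 22.4 and 27 CPM in cystic Pkd2 +/+ mice (log2 fold change -0.28 ± 0.12, adjusted p = 0.0815). The median over the 6 BBSome genes was -0.04, and Bbs12, a chaperonin-like protein, read 4.88, 4.45 and 5.95 CPM against 5.81, 5.29 and 6.22 CPM (0.18 ± 0.17, adjusted p = 0.485). The values of these genes overlapped between the groups except for Bbs4, which differed by 0.07 ± 0.13.

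The inversin compartment, a segment above the transition zone built by Invs, Anks6 and the kinase Nek8, did not pass the test either. Anks6 read 38.4, 30.7 and 38.8 CPM in noncystic and 42.1, 38.5 and 40.4 CPM in cystic Pkd2 +/+ mice (log2 fold change 0.16 ± 0.10, adjusted p = 0.231). Of the 3 genes, 0 had an unadjusted p under 0.05 in edgeR. DESeq2 called 0 as well, and limma-trend with library totals called 2 higher. Of all genes tested DESeq2 called 16.1% higher and limma-trend 25.6%, and of the well expressed ones edgeR called 26.6% higher.

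The 2 GTPases of ciliary membrane traffic went opposite ways. Arl3, which releases lipidated cargo inside the cilium, read 104, 102 and 93.9 CPM in noncystic and 72.8, 74.1 and 76 CPM in cystic Pkd2 +/+ mice (log2 fold change -0.43 ± 0.08, adjusted p = 0.000556). Arl13b, a ciliary membrane GTPase that activates Arl3, read 14.4, 12.1 and 14.1 CPM against 16.6, 19.9 and 18.2 CPM (0.43 ± 0.13, adjusted p = 0.0195). Neither pair of groups overlapped. The lipid phosphatase gene Inpp5e and the cargo adaptor gene Tulp3 had log2 fold changes of -0.14 ± 0.12 and -0.04 ± 0.08. Arl3 stayed lower and past the threshold with library totals.

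Glis2, a Gli-similar zinc finger factor mutated in nephronophthisis, had the smallest adjusted p of the 50 genes. It read 183, 169 and 198 CPM in noncystic and 283, 286 and 298 CPM in cystic Pkd2 +/+ mice (log2 fold change 0.65 ± 0.08, adjusted p = 4.56e-06). Kif7, a kinesin that organises the cilium tip and regulates Gli factors, read 5.82, 5.25 and 5.6 CPM against 7.82, 7.44 and 8.85 CPM (0.53 ± 0.18, adjusted p = 0.0337). Both were higher without overlap. Genes on the opposite strand overlap 10.4% of the exon bases of Glis2 and 20.26% of those of Kif7, and the strand setting of the counting is not given in the sources used here.

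**Figure D2:**
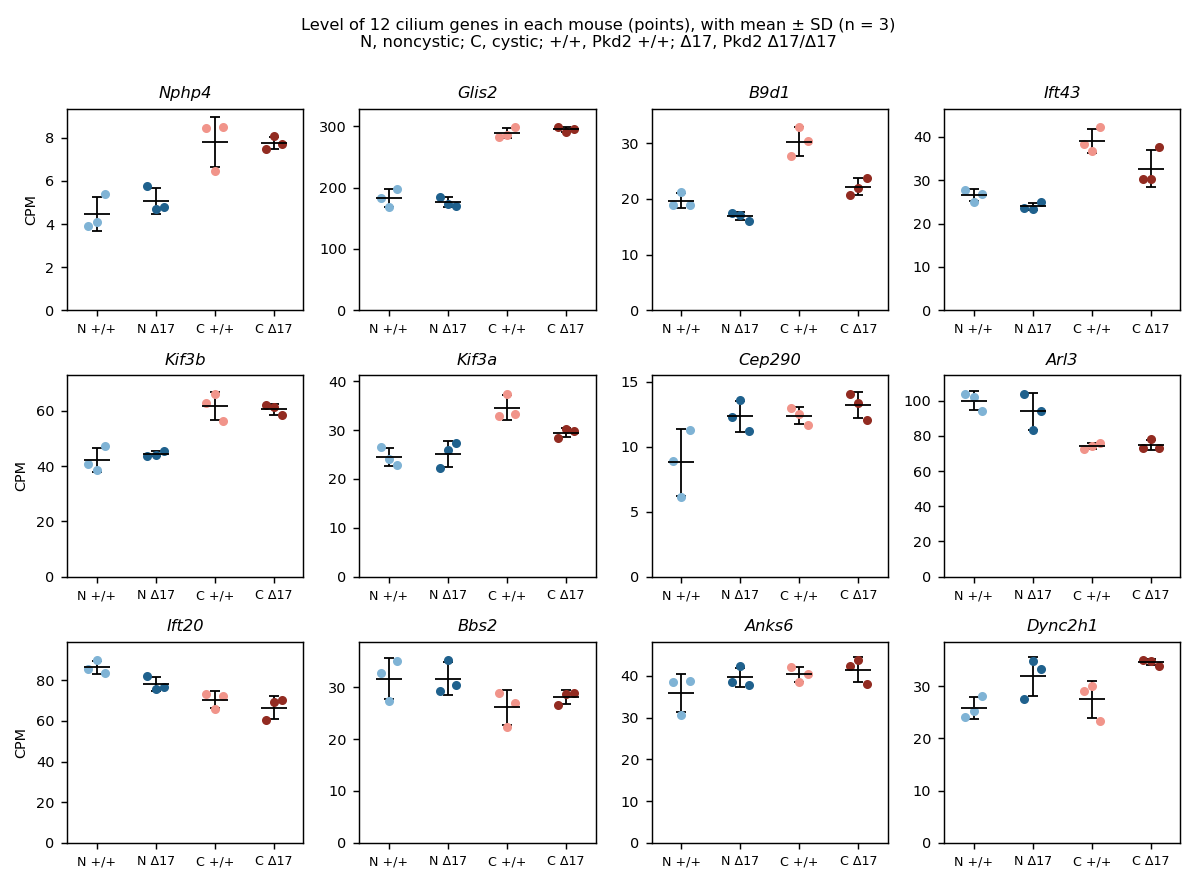
CPM of 12 of the genes in each mouse (points) with the mean and SD of each group (bars, n = 3), on axes that start at 0. Glis2 was at 169 to 198 CPM in noncystic and at 283 to 298 CPM in cystic Pkd2 +/+ mice, whereas Arl3 fell from 93.9 to 104 CPM to 72.8 to 76 CPM.

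Cystic and noncystic values were fully apart in 22 of the 50 genes (44%), against 41.7% of all genes tested and 58.2% of the well expressed ones. Of the 17 genes past the threshold, 7 were past it in each of the 16 fits run, namely Nphp4, Glis2, B9d1, Ift43, Kif3b, Kif3a and Arl3. The others were past it in 6 to 14 fits, with the fewest for Ift27 and Ift81 (6 each) and Cep290 (7). Mouse 20 was the lowest of its group in 33 of the 50 genes (66%), against 35.3% of the well expressed genes, and its median log2 ratio to the other two mice over the 50 genes was -0.17. Without it, 7 of the 50 genes were higher and 3 lower, against 13.4% and 12.8% of all genes tested. Mouse 20 also held the most of the fat markers in its group, and the relation to the cilium genes was not tested. Without the cystic mice 27 and 30, in which adrenal gland genes were high, 8 of the 50 were higher and 2 lower, against 14.6% and 11.9% of all genes tested.

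**Figure D3:**
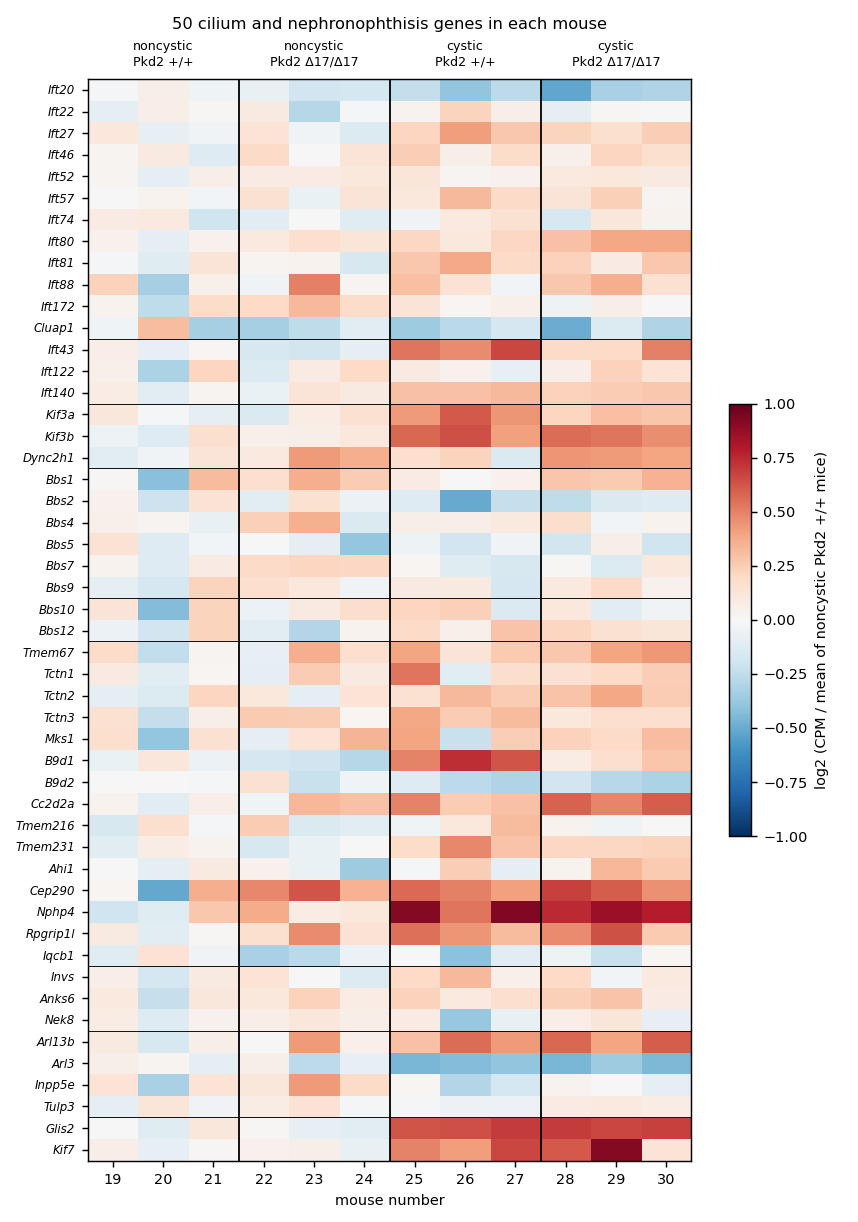
Log2 ratio of the CPM of each of the 50 genes (rows, by role) in each of the 12 mice (columns) to the mean of the noncystic Pkd2 +/+ mice. Mouse 20 was the lowest of its group in 33 genes, and Nphp4, Glis2, Kif3b and Ift43 are redder in all 6 cystic mice than in any noncystic mouse.

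Cystic and noncystic kidneys were compared again in Pkd2 Δ17/Δ17 mice, which share no mouse with the comparison above. There 9 of the 50 genes were higher (18%) and 2 lower (4%), against 12.8% and 10.2% of all genes tested (23% in either direction) and 21.1% and 16.6% of the well expressed ones. Of the 17 genes past the threshold with Pkd2 +/+, 10 (58.8%) were past it here in the same direction, and of the 11 called here these were 90.9%. Over all genes the corresponding shares were 63% and 85%, which are near those of the cilium genes. The sign was the same in 42 of the 50. With library totals 16 were higher and 0 lower, and of all genes tested 21.6% were higher and 6.72% lower.

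The 9 higher genes were Glis2, Nphp4, Kif7, Kif3b, Ift43, B9d1, Cc2d2a, Tmem231 and Ift80. Glis2 read 185, 173 and 170 CPM in noncystic and 298, 291 and 295 CPM in cystic Δ17/Δ17 mice (log2 fold change 0.74 ± 0.08, adjusted p = 3.73e-06). Kif3b read 43.8, 44.1 and 45.4 CPM against 62.2, 61.3 and 58.4 CPM (0.45 ± 0.09, adjusted p = 0.00103), and Nphp4 5.78, 4.69 and 4.79 CPM against 7.5, 8.07 and 7.7 CPM (0.61 ± 0.18, adjusted p = 0.0183). The 2 lower genes were again Arl3, at 104, 83.4 and 94.3 CPM against 72.9, 78.1 and 73.2 CPM (-0.33 ± 0.08, adjusted p = 0.00629), and Ift20, at 82.2, 75.9 and 76.5 CPM against 60.3, 69.3 and 70.3 CPM (-0.23 ± 0.08, adjusted p = 0.0401). None of these genes overlapped between the groups. The calls of Arl3 and Ift20 were lost with library totals, at log2 fold changes that were still below 0.

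Of these 11 genes, Glis2, Ift43 and Kif3b were past the threshold in each of the 16 fits. Ift80, an IFT-B gene mutated in a skeletal ciliopathy, was the one gene called here and not with Pkd2 +/+, at 34.3 ± 0.844 CPM in noncystic and 40.2 ± 1.5 CPM in cystic mice (SD, n = 3; log2 fold change 0.23 ± 0.08, adjusted p = 0.0474). It was past the threshold in 4 of the 16 fits, and not by DESeq2 or on leaving out any of the 6 mice compared. Tmem231 was past it in 5 fits, and also not by DESeq2 or on leaving out any of the 6 mice. Ift20 was past it in 7 fits, and Kif7, Cc2d2a, Nphp4, B9d1 and Arl3 in 10 to 14. Without single mice 6 to 9 of the 50 genes were called, and 5 without mice 27 and 30. Calls over all genes tested went from 5679 to between 4423 and 4959 without single mice and to 4174 without mice 27 and 30. Mice 22, 24, 28, 29 and 30 each left 6 or 7 calls when omitted. The 8 BBS genes and the 3 inversin compartment genes again had 0 calls by edgeR, with 0 at an unadjusted p under 0.05, and 0 called by DESeq2 or limma-trend. By edgeR 23% of all genes tested were called.

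The deletion of the miR-17 motif was compared in cystic kidneys, to ask what follows when Pkd2 escapes miR-17. Of the 50 genes 1 was called (2%), against 2.23% of all genes tested and 3.76% of the well expressed ones. That gene was B9d1, which read 27.7, 32.8 and 30.3 CPM in cystic Pkd2 +/+ and 20.7, 22 and 23.8 CPM in cystic Pkd2 Δ17/Δ17 mice, without overlap (log2 fold change -0.45 ± 0.10, adjusted p = 0.0259). Its noncystic levels were 18.8, 21.2 and 18.9 CPM with Pkd2 +/+ and 17.5, 17.1 and 16.1 CPM with Pkd2 Δ17/Δ17, so the cystic Δ17/Δ17 mice lay between the noncystic and the cystic Pkd2 +/+ mice except for the 20.7 CPM of mouse 28, which is below the highest noncystic mouse. The call was lost on leaving out mouse 26, 27, 28 or 29 and on fitting the 2 cystic groups alone, with adjusted p up to 0.145, and the estimate stayed between -0.51 and -0.39.

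The other 49 genes did not pass the test, and 4 of them had an unadjusted p under 0.05. Dync2h1 read 29, 30 and 23.3 CPM in cystic Pkd2 +/+ and 35, 34.7 and 33.9 CPM in cystic Pkd2 Δ17/Δ17 mice (log2 fold change 0.33 ± 0.11, adjusted p = 0.144). Ift43 (-0.26 ± 0.10, adjusted p = 0.214), Kif3a (-0.23 ± 0.10, adjusted p = 0.28) and Ift80 (0.18 ± 0.08, adjusted p = 0.288) were the others. The median over the 50 genes was 0.00, and standard errors ran from 0.07 to 0.19. Glis2, the most abundant member, read 283, 286 and 298 CPM against 298, 291 and 295 CPM (0.03 ± 0.07). Groups did not overlap in 9 genes (18%), against 19% of all genes tested and 24.6% of the well expressed ones.

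The 4 genes with a seed match to miR-17 in their own 3′-UTR, shown above, were not edited in these mice. On deletion of the Pkd2 motif in cystic kidneys their log2 fold changes were -0.03 ± 0.09 for Kif3b, 0.12 ± 0.16 for Ift88, -0.10 ± 0.12 for Invs and -0.02 ± 0.17 for Bbs12. None was past the threshold. For comparison, Pkd2 itself rose by 0.53 ± 0.08 in the same comparison (adjusted p = 0.00249).

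In noncystic kidneys the motif deletion changed none of the 50 genes past the threshold by edgeR (0.00406% of all genes tested were called), with 3 at an unadjusted p under 0.05 and 0 by DESeq2 and limma-trend. The 3 were Ift172 (log2 fold change 0.24 ± 0.09), Dync2h1 (0.31 ± 0.11) and Cep290 (0.49 ± 0.17), each with an adjusted p of 0.771. Pkd2 was at 0.40 ± 0.08 with the same adjusted p. Ift172, a peripheral subunit of IFT-B, read 56, 45.8 and 61.9 CPM with Pkd2 +/+ and 62.6, 68.2 and 62.1 CPM with Pkd2 Δ17/Δ17, and Dync2h1 read 24, 25.2 and 28.1 CPM against 27.6, 34.7 and 33.2 CPM, so that Ift172 was without overlap and Dync2h1 was not.

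Whether the disease comparison depended on the Pkd2 genotype was tested as an interaction. By edgeR 0 of the 50 genes were past the threshold (0.0122% of all genes tested were), with 1 at an unadjusted p under 0.05 and 0 by DESeq2 and limma-trend. That gene was Ift172, whose log2 fold change between cystic and noncystic kidneys was 0.07 ± 0.09 with Pkd2 +/+ and -0.23 ± 0.09 with Pkd2 Δ17/Δ17 (difference -0.30 ± 0.13, adjusted p = 0.569). For B9d1 the difference was -0.23 ± 0.14 (adjusted p = 0.716). The 7 genes called in Pkd2 +/+ and not in Δ17/Δ17 mice (Ift27, Ift81, Ift140, Kif3a, Cep290, Rpgrip1l and Arl13b) were therefore not shown to differ between the genotypes.

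An X-box was no more common among the higher genes. Of the 13 higher genes with a promoter in the RefSeq table, 2 held a match (15.4%), and of the 29 that did not pass the test, 12 did (41.4%). Both lower genes were without one. The higher genes had a median exon length of 5372 nucleotides and a median level of 23.7 CPM, and the genes that did not pass had 5358 nucleotides and 19.6 CPM. Across the 50 genes, which share libraries and so are not independent, Pearson's r of the log2 fold change was 0.19 with log2 exon length and -0.13 with log2 mean CPM. Of the RFX factors themselves, 2 of 6 tested were higher in cystic Pkd2 +/+ kidneys (33.3%). Of all genes tested 16.9% were higher, and of the well expressed ones 26.6%. They were Rfx2, by 0.80 ± 0.20 (adjusted p = 0.0049), and Rfx5, by 0.87 ± 0.15 (adjusted p = 0.000244). Rfx5 shares 26.76% of its exon bases with a gene on the opposite strand. Rfx3, a main regulator of cilium genes, was at 0.08 ± 0.16 (adjusted p = 0.759). With Pkd2 Δ17/Δ17, 1 of the 6 was higher (16.7%, against 12.8% of all genes tested and 21.1% of the well expressed ones).

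Other cilium genes that are no members were read from lists of the same machinery, in cystic against noncystic Pkd2 +/+ kidneys. The shares to set beside each list below are 16.9% higher and 14.2% lower of all genes tested, and 26.6% higher and 22.2% lower of the well expressed ones. Of 15 further IFT and motor genes 3 were higher and 0 lower: the IFT-A genes Wdr35 by 0.61 ± 0.08 (adjusted p = 2.06e-05) and Wdr19 by 0.50 ± 0.12 (adjusted p = 0.00398), and the IFT-B gene Ttc26 by 0.54 ± 0.13 (adjusted p = 0.00313). Thus among IFT-A genes Wdr35, Wdr19, Ift43 and Ift140 were higher, and Ift122 and Ttc21b (0.25 ± 0.10, adjusted p = 0.0782) did not pass. Of 6 further BBS genes 0 were higher and 1 was lower, the chaperonin-like Mkks by -0.58 ± 0.14 (adjusted p = 0.00499), of whose exon bases 29.25% overlap other genes.

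Of 19 further transition zone genes and their partners 6 were higher and 0 lower, Rpgrip1 by 1.64 ± 0.25 (adjusted p = 8.43e-05), Tmem237 by 0.60 ± 0.12, Tmem138 by 0.51 ± 0.16 and Armc9 by 0.46 ± 0.11 among them. Genes on the opposite strand overlap 39.45% of the exon bases of Tmem138 and 10.55% of those of Tmem237. Of 17 basal body genes 5 were higher and 1 lower, with C2cd3 at 0.68 ± 0.12, Cep164 at 0.62 ± 0.13, Ccp110 at 0.42 ± 0.13 and Rab11a, a GTPase of recycling endosomes, at -0.45 ± 0.07.

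Among the lists of genes outside the 50, cilium disassembly had the largest share, with 8 of 9 genes higher (88.9%). Plk1 was at 1.62 ± 0.20, Kif24 at 1.40 ± 0.27, Aurka at 1.15 ± 0.17 and Nek2 at 1.07 ± 0.23, in log2 fold change. Plk1, Aurka and Nek2 are mitotic kinases as well, and Kif24 is a centriolar kinesin. The 6 markers of dividing cells rose with them, by 1.19 to 1.66, and their part in this list was not tested. Hdac6, the tubulin deacetylase of ciliary resorption, did not pass (0.23 ± 0.09, adjusted p = 0.0631).

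**Figure D4:**
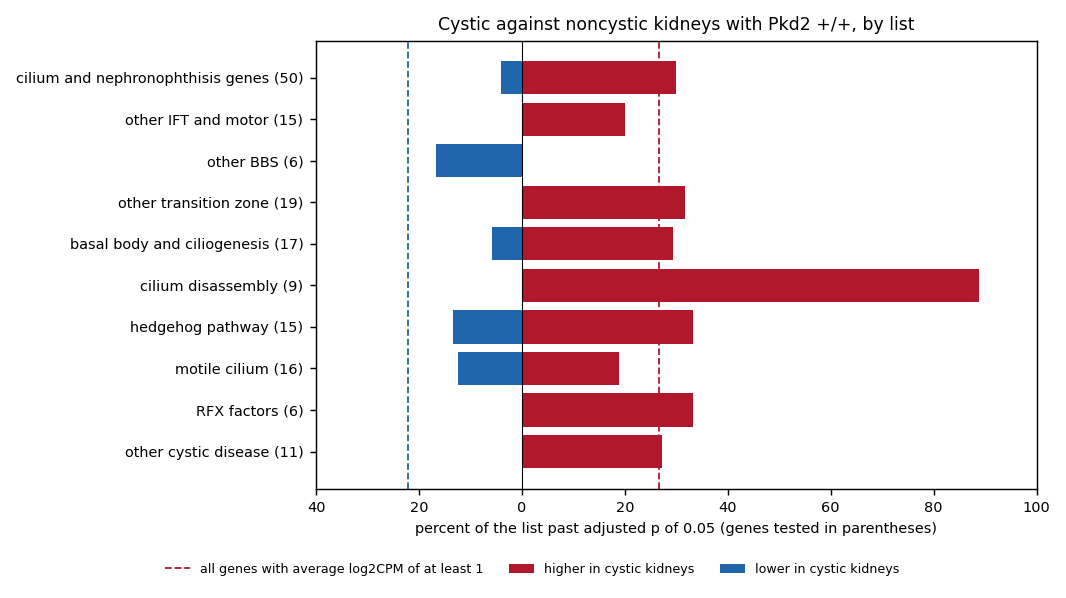
Percent of each list of cilium genes past the threshold in cystic against noncystic Pkd2 +/+ kidneys, higher to the right in red and lower to the left in blue, with the number of genes tested in parentheses. Dashed lines mark the 26.6% higher and 22.2% lower of the well expressed genes. Cilium disassembly stands at 88.9%, and the 50 cilium and nephronophthisis genes at 30% and 4%.

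Hedgehog signalling, which in vertebrates runs through the cilium, was read from 15 genes, of which 5 were higher and 2 lower. The factors Gli3 (1.39 ± 0.18, adjusted p = 1.36e-05) and Gli1 (0.97 ± 0.18, adjusted p = 0.000389) and the ciliary receptor Gpr161 (1.15 ± 0.13, adjusted p = 3.61e-06) were higher, and the ligand Shh, with 28.35% of its exon bases overlapped by genes on the opposite strand, was lower (-1.06 ± 0.37, adjusted p = 0.0358). Of 16 genes of motile cilia, 3 were higher and 2 lower. Foxj1, the master regulator of motile cilia, read 3.69, 2.22 and 2.34 CPM in noncystic and 11.4, 16.3 and 15.7 CPM in cystic Pkd2 +/+ mice (2.38 ± 0.24, adjusted p = 1.31e-06), and Ccdc40 was higher (1.24 ± 0.36, adjusted p = 0.015). The axonemal dyneins Dnah9 (-2.36 ± 0.56, adjusted p = 0.00368) and Dnah11 (-1.59 ± 0.23, adjusted p = 4.31e-05) were lower, so the regulator and these dyneins went opposite ways with Pkd2 +/+. Dnah9 is a gene of low level, at an average log2CPM of 0.16. In the Pkd2 Δ17/Δ17 comparison 2 of the 16 genes were higher and 0 lower (12.8% and 10.2% of all genes tested were), so neither dynein was called lower there. Dnah11 was the 1 gene of the 16 past the threshold for the motif deletion in cystic kidneys (2.23% of all genes tested were), at 0.968, 1.27 and 0.942 CPM with Pkd2 +/+ and 3.75, 3.18 and 2.79 CPM with Pkd2 Δ17/Δ17 (1.61 ± 0.23, adjusted p = 0.00216).

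Of 11 other genes of cystic kidney disease 3 were higher and 0 lower in cystic Pkd2 +/+ kidneys, among them Bicc1, an RNA-binding protein, by 1.01 ± 0.08 (adjusted p = 1.47e-07) and Pkhd1, which encodes fibrocystin, by 0.76 ± 0.11 (adjusted p = 5.11e-05). Pkd1 (0.26 ± 0.11, adjusted p = 0.0775) and Pkd2 (0.11 ± 0.08, adjusted p = 0.341) did not pass.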

How the data were processed

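The authors trimmed paired reads with Trim Galore 0.6.3, aligned them to GRCm38 with STAR 2.5.3a and deposited a table of raw read counts, with 1 column for each of 12 mice. The strand setting is not given in the sources used here. Counts were analysed with edgeR 4.0.16 in R 4.3.3 (TMM factors, quasi-likelihood test, a mean for each of the 4 groups, which leaves 8 residual degrees of freedom, Benjamini-Hochberg adjustment over all genes tested, threshold 0.05). Standard errors were derived from the quasi-likelihood test, as the absolute log2 fold change over the square root of its F statistic. The 24642 genes whose average log2CPM reached -3 were kept, and 343 unnamed genes held 0.0225% of reads. The alternatives, among them DESeq2 1.42.0, limma-trend (limma 3.58.1), DESeq2 size factors, library totals, other cutoffs and Xist as a covariate, were run as in the closing section. Same-group libraries differed beyond sampling noise (chi-square per degree of freedom of at least 8.885) and were counted as separate mice. Coordinates and exons came from GENCODE M21 and promoters and miR-17-5p from RefSeq. The 50 genes and all lists were chosen with earlier results of these data known. Values per mouse were given for the 12 called genes with the largest change, the calls of other comparisons (10 with the smallest p) and the most abundant gene of each role. Other genes with values per mouse (Ift88, Dync2h1, Ift172, Foxj1, Dnah11) were picked after their values were seen. Of other lists, Pkd1, Pkd2, Pkhd1 and the 4 called genes with the largest change and an average log2CPM of 0 or more were named, and Ttc21b, Hdac6, Rfx3 and Kifap3 were added later. Some genes this rule names are not reported here.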

Additional observations from a re-analysis of the deposited data

How the results depend on the processing

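In cystic against noncystic Pkd2 +/+ kidneys, where 15 of the 50 genes were higher and 2 lower, library totals gave 24 and 1 and limma-trend with library totals 25 and 1, where of all genes tested 25.4% and 10% and 25.6% and 10.2% were called. Leaving out mice 27 and 30, an alternative chosen after seeing the data, gave 8 higher. Leaving out 1 mouse gave 7 to 13 higher (7 without mouse 20) and 2 to 3 lower. For the motif deletion in cystic kidneys, 1 gene was called, and 0 with the compared groups only and without mice 27 and 30, with 0 to 1 on leaving out 1 mouse. In Pkd2 Δ17/Δ17 mice 11 genes were called, 5 without mice 27 and 30, and 6 to 9 on leaving out 1 mouse. The motif deletion in noncystic kidneys and the interaction gave 0 genes under each alternative run. For library totals the shift in scale is given in the report. Fits without a mouse have smaller samples, but calls over all genes tested did not always fall with them. For the motif deletion in cystic kidneys, 549 genes were called in the full fit and 118 to 856 on leaving out 1 mouse. The cause of the losses was not tested. Log2 fold changes of the called members and of a chosen set of other named genes were compared with their values under the alternatives. None of these 958 comparisons changed direction: 822 kept their side of the threshold, 130 lost it and 6 gained it. No paired analysis was possible because the labels used here name no litters or pairs of mice. Levels of a few CPM, as for Kif7, Nphp4 and the BBS chaperonin genes, rest on 69 to 218 reads a mouse, with standard errors of 0.17 to 0.19. In cystic against noncystic Pkd2 +/+ kidneys Bbs12, at 0.18 ± 0.17, did not pass the test, and Kif7 passed at 0.53 ± 0.18. Differences near the standard error, and some above it, can thus go uncalled in these genes.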

Other observations

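Within a group, the mice that stood low or high were not the same in all 50 genes. Mouse 26 was the lowest of the cystic Pkd2 +/+ mice in 24 of the 50 genes (and in 35.1% of the well expressed genes), and mouse 25 was the highest in 23 (and in 36.4%). In the cystic Pkd2 Δ17/Δ17 group mouse 29 was the highest in 23 genes, although it was the highest in 29.8% of the well expressed genes. Over the 50 genes, Pearson's r between the log2 ratio of a mouse to the other two of its group and log2 exon length ran from -0.39 in mouse 27 to 0.42 in mouse 23, and was 0.41 in mouse 21. The genes share their libraries, so these values are descriptions with no test.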
